A study of Mus musculus with 20 samples.

Results

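The let-7 family outside the let-7e cluster was followed in 20 small RNA sequencing libraries from cultures of mouse bone marrow. Its 10 members are let-7a-5p, let-7b-5p, let-7c-5p, let-7d-5p, let-7d-3p, let-7f-5p, let-7g-5p, let-7i-5p, let-7i-3p and miR-98-5p, out of 1182 miRNA arms detected. They are defined by name and annotation, and sequence tags of 18 to 26 nt were assigned where they matched a listed arm of the annotated hairpins without a mismatch. All 10 were among the 374 miRNAs abundant enough to be tested.

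Macrophages grown with M-CSF (hybridoma supernatant) and dendritic cells grown with GM-CSF came from mir-155-/- mice (B6.Cg-Mir155tm1.1Rsky/J) or wild-type C57BL/6 mice of 8 to 12 weeks. Each culture was sequenced with LPS, oxLDL, eLDL, LDL or no stimulus, which gave 1 library for each of the 20 conditions. Dendritic cells received 200 ng/ml LPS overnight at day 8 to 9. For the lipoproteins and for all macrophage stimuli, the sources used here give no dose or time, nor do the labels say whether the 5 libraries of a culture came from separate mice or dishes, so p-values measure the spread between these libraries only.

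miRNAs guide Argonaute proteins to target mRNAs through the seed, bases 2 to 8 from the 5′ end. The let-7 family, described in Caenorhabditis elegans as a developmental timing gene, holds many genes in mammals whose 5′ arms share 1 seed. Most of its mammalian precursors are bound by LIN28, which blocks their maturation in embryonic cells, and mature let-7 builds up as cells differentiate. The 3′ ends of miRNAs can gain bases that the hairpin does not encode, mostly A or U, added by terminal nucleotidyltransferases.

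The mature sequences are shown because the family members differ by so few bases. They are RefSeq's (GRCm38.p6), written 5′ to 3′ with the seed in capitals.
let-7a-5p: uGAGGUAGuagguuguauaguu
let-7b-5p: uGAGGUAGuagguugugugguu
let-7c-5p: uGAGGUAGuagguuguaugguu
let-7d-5p: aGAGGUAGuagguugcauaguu
let-7f-5p: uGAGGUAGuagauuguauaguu
let-7g-5p: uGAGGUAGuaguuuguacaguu
let-7i-5p: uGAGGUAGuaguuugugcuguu
miR-98-5p: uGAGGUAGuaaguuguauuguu
let-7d-3p: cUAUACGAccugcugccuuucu
let-7i-3p: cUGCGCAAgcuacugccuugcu
The 8 arms from the 5′ side share the seed GAGGUAG, while let-7d-3p and let-7i-3p each have a seed of their own. Counted from 1 at the 5′ end, let-7c-5p differs from let-7a-5p by A19G and let-7f-5p by G12A. let-7b-5p differs by A17G and A19G, let-7d-5p by U1A and U16C, let-7g-5p by G12U and U18C, and miR-98-5p by G11A and A19U. let-7i-5p is the most distant of the 8, with G12U, A17G, U18C and A19U. In every member the most abundant tag over all libraries was the annotated 22-nt mature sequence, from 84.1% of the mismatch-free reads of let-7d-3p to 47.3% of those of let-7i-3p.

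The members come from 11 hairpins, placed here on GRCm38 with the GENCODE M21 annotation. let-7a-1 (chr13:48538179-48538272), let-7f-1 (chr13:48537829-48537917) and let-7d (chr13:48536012-48536114) lie on the minus strand in exonic sequence of the lincRNA 6720427I07Rik. let-7c-2 (chr15:85706603-85706697) and let-7b (chr15:85707319-85707403) lie on the plus strand in exonic sequence of the noncoding transcript Lncppara. let-7f-2 (chrX:151912346-151912428) and miR-98 (chrX:151913214-151913321) are in an intron of Huwe1, which encodes a ubiquitin ligase, on its strand.

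The remaining hairpins stand apart from each other. let-7g (chr9:106178840-106178927) is in an intron of Wdr82, let-7c-1 (chr16:77599657-77599750) in an intron of the noncoding gene Mir99ahg and, on the opposite strand, of Gm11146, and let-7a-2 (chr9:41536716-41536811) in introns of 2 noncoding genes, 3110039I08Rik and Gm49317. let-7i (chr10:122985640-122985724, minus strand) overlaps an exon of the pseudogene D630033A02Rik. let-7a, let-7c and let-7f each have 2 hairpins with the same mature sequence, so their reads cannot be divided between loci.

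Libraries held 10254997 to 22796027 reads, of which 5135183 to 11822720 matched miRNA hairpins, and 3 reads stood for 0.254 to 0.584 CPM, the unit used for levels, in which every library is scaled to the same total of hairpin reads. miR-155-5p was at 3.92 to 5.87 CPM in mir-155-/- macrophages against 5324 to 39693 CPM in wild-type macrophages, and at 0.307 to 0.782 CPM in mir-155-/- dendritic cells against 128 to 9521 CPM in wild-type dendritic cells. Myeloid miRNAs (4 of 4 detected) summed to 120587 to 226390 CPM in macrophages and 217863 to 329019 CPM in dendritic cells. The erythroid list (miR-451a and miR-144-3p) reached at most 2.22 CPM in macrophages and 8.76 CPM in dendritic cells. The 5′ arm of Mir122, the liver and serum marker, reached at most 4.57 CPM in macrophages and 1.69 CPM in dendritic cells, and the 3′ arm of Mir124a, the neuronal one, 1.75 and 0 CPM. The 5′ arm of Mir150, a marker of lymphoid cells, was at 63.2 to 167 CPM in macrophages and 6.15 to 24 CPM in dendritic cells, the epithelial list at 173 to 239 and 129 to 229 CPM, the endothelial list at 2.92 to 16.8 and 4.24 to 18.2 CPM, and the stromal and muscle list, with miR-133a-3p not matched, at 1.48 to 278 and 21.9 to 277 CPM; their part in the let-7 results was not tested.

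The libraries of the 2 cell types also differ technically. Reads with an unread base made up 6.84 to 7.18% of macrophage reads and 0.125 to 0.133% of dendritic cell reads. An 18-nt form of let-7i-5p, ugagguaguaguuugugc, made up 2.60 to 3.45% of let-7i-5p reads in 8 macrophage libraries but 0.0335% in wild-type macrophages with LDL, 0.0519% in unstimulated mir-155-/- macrophages and 0.0534 to 0.0766% in dendritic cells. Sequencing and cell type therefore cannot be told apart in any comparison of the 2 cell types. Where a result changes without those 2 macrophage libraries, its value without them is given beside it. Counting the reads with 1 unread base changed no call of a member.

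Macrophages held less of the family than dendritic cells in each of the 10 pairs matched on genotype and stimulus. The 8 arms with the let-7 seed together took 12.9 ± 1.8% of miRNA reads in macrophages and 22.1 ± 4.28% in dendritic cells (SD, n = 10 each), a mean log2 difference of −0.77. The highest macrophage library, mir-155-/- with oxLDL, had 16.7%, and the lowest dendritic cell library, wild type with eLDL, had 16.9%, so the ranges did not meet. Wild-type dendritic cells with oxLDL stood above all others at 31.1%. With miR-21a-5p and miR-146b-5p, 2 abundant miRNAs, left out of the total the mean log2 difference was −0.50, and with all reads of the library as the total it was −1.01, lower in 10 of 10 pairs each time. CPM is a share of the reads of a culture, so fewer cells of a type, less RNA per cell and more of other miRNAs cannot be told apart.

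In macrophages the order of levels was let-7f-5p (60649 ± 11744 CPM), let-7a-5p (26236 ± 4657), let-7i-5p (18298 ± 1584), let-7g-5p (11536 ± 1913), let-7c-5p (5188 ± 832) and let-7d-5p (3274 ± 413), followed by miR-98-5p, let-7b-5p, let-7d-3p and let-7i-3p (SD, n = 10). In dendritic cells let-7f-5p (80682 ± 17849 CPM) and let-7a-5p (54558 ± 10289) again came on top, but let-7c-5p (33861 ± 6989) was above let-7i-5p (25896 ± 4445) in 9 of 10 libraries. Neighbours in the order held their places in every library, apart from that pair, miR-98-5p over let-7b-5p in macrophages (7 of 10 libraries) and miR-98-5p over let-7d-3p in dendritic cells (5 of 10). Reads of different miRNAs also depend on how well each sequence is ligated and amplified, which was not corrected.

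**Figure D1:**
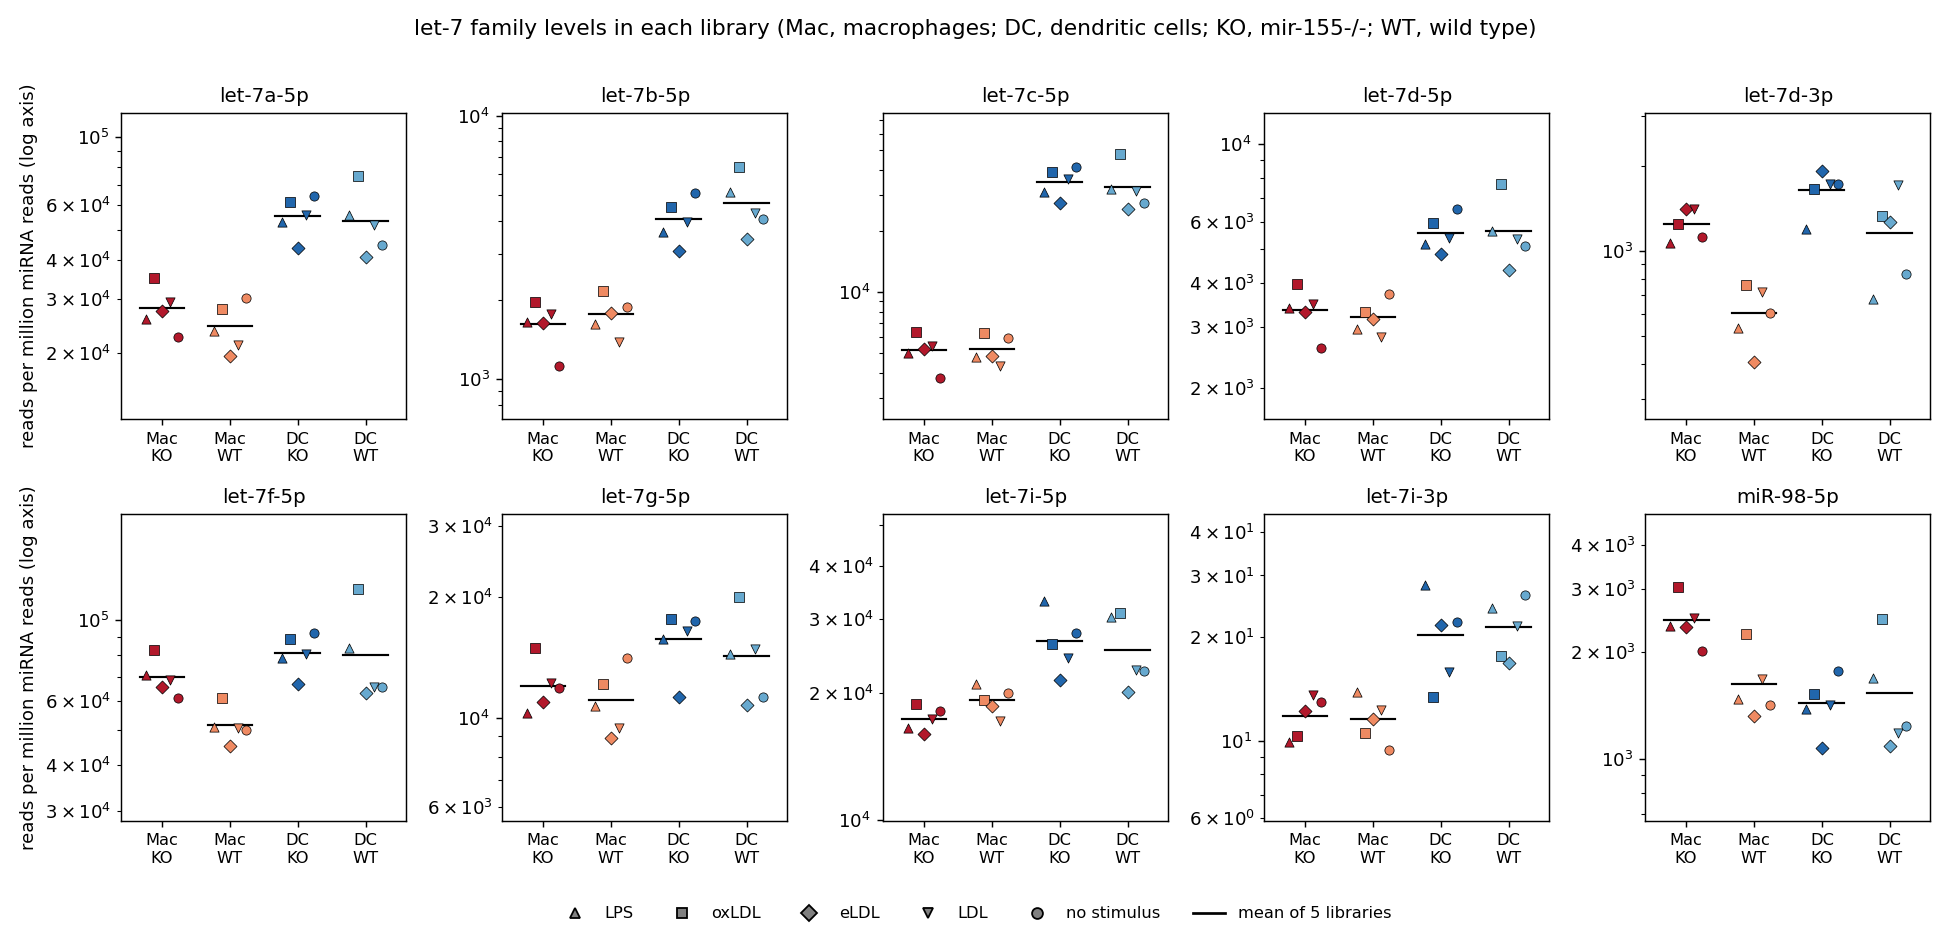
Level of each of the 10 arms in every library, in CPM on a log axis; each symbol is 1 library, its shape the stimulus, and lines are means of 5 libraries. let-7c-5p runs from 3769 to 6337 CPM in macrophages and from 25554 to 47534 CPM in dendritic cells. miR-98-5p is the arm whose macrophage values lie higher, mostly in mir-155-/- libraries.

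Per member, 9 arms were lower and 1 was higher in macrophages than in dendritic cells by edgeR's quasi-likelihood test at an adjusted p of 0.05 (Benjamini-Hochberg over 374 miRNAs). Of all miRNAs tested, 37.2% were lower, 42.5% higher and 79.7% differed, so a call by itself sets no member apart. With upper-quartile scaling 125 of all miRNAs were higher and 172 lower, in place of 159 and 139, and the same 9 members were lower and 1 higher. The median log2 change was −0.57 over the members and 0.08 over all miRNAs.

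let-7c-5p fell more than any other of the 10 members. It was at 3769, 5116 and 6337 CPM (lowest, median and highest) in macrophages and at 25554, 31814 and 47534 CPM in dendritic cells, with no overlap. The fitted log2 change was −2.57 ± 0.10 (SE; edgeR, adjusted p = 1.1e-12). Its 2 hairpins have different 3′ arms: let-7c-1-3p had 14 reads over the 10 macrophage libraries and 3034 over the 10 dendritic cell libraries, whereas the arm shared by let-7a-1 and let-7c-2 was at 6.66 to 13.4 CPM in macrophages and 10.9 to 26.3 CPM in dendritic cells. miR-99a-5p, from the hairpin next to let-7c-1, had 2.62 to 8.87 CPM in macrophages and 1283 to 2771 CPM in dendritic cells.

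let-7b-5p and let-7a-5p followed. let-7b-5p was at 1127 to 2167 CPM in macrophages and 3063 to 6407 CPM in dendritic cells, a log2 change of −1.22 ± 0.10 (edgeR, adjusted p = 1.4e-08). let-7a-5p was at 19568 to 34900 CPM in macrophages and 40957 to 74496 CPM in dendritic cells, a log2 change of −0.92 ± 0.09 (edgeR, adjusted p = 1.6e-07). Neither range overlapped between the cell types. let-7d-5p, at 2608 to 3985 and 4365 to 7671 CPM, was also lower in all macrophage libraries than in any dendritic cell library (log2 −0.64 ± 0.09). How many of all miRNAs tested had levels without overlap was not counted, here or for genotype. A lack of overlap in level therefore sets no member apart by itself.

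Decreases of 0.23 to 0.67 on the log2 scale were fitted for the other 5 arms that fell, whose ranges overlapped between the cell types. let-7i-3p, a rare arm with 9.42 to 13.9 CPM in macrophages and 13.4 to 28.1 CPM in dendritic cells, fell by 0.67 ± 0.14 on the log2 scale. let-7d-3p fell by 0.51 ± 0.10, let-7i-5p by 0.36 ± 0.07, let-7f-5p by 0.29 ± 0.09 and let-7g-5p by 0.23 ± 0.08, with adjusted p up to 0.0176 (edgeR). The let-7g-5p call was lost without the 2 macrophage libraries that stood apart (log2 −0.20, edgeR adjusted p = 0.0557).

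miR-98-5p was the exception to the family's direction. It was at 1322, 2127 and 3049 CPM (lowest, median and highest) in macrophages and 1071, 1402 and 2475 CPM in dendritic cells, which overlap, and the fitted log2 change was 0.57 ± 0.10 (edgeR, adjusted p = 0.000108). In CPM the excess of miR-98-5p lay mostly in mir-155-/- libraries, at 2454 ± 378 in macrophages and 1433 ± 253 in dendritic cells. Wild-type libraries had 1627 ± 368 and 1533 ± 575 CPM (SD, n = 5 each). There miR-98-5p was lower in macrophages with LPS (1473 against 1684 CPM) and oxLDL (2242 against 2475), and higher with eLDL, LDL and no stimulus. The other arm of its hairpin, miR-98-3p, rose by 0.59 ± 0.10 (edgeR, adjusted p = 4.7e-05), with 36.7 to 72.3 CPM in macrophages and 26.4 to 50.1 CPM in dendritic cells. Of the 22 other arms and hairpin neighbours of the family that were listed, 17 were tested. Among these miR-98-3p was the 1 that was higher in macrophages, while 16 were lower. Over all miRNAs tested, 42.5% were higher and 37.2% lower. Some of the 16, such as let-7c-1-3p and miR-99a-3p (at most 1.01 and 1.14 CPM in macrophages), were tested only through their dendritic cell levels. Several also come from the same clusters, so the count of 16 carries no test.

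The make-up of the family therefore differed between the cell types. This measure does not depend on library scaling, since it sets each of the 8 arms with the shared seed against their own sum. let-7f-5p made up 46.8 ± 3.9% in macrophages and 36.3 ± 1.49% in dendritic cells (SD, n = 10 each), and let-7c-5p 4.04 ± 0.511% and 15.3 ± 0.762%. let-7a-5p made up 20.3 ± 1.55% in macrophages and 24.7 ± 0.736% in dendritic cells, let-7i-5p 14.5 ± 2.47% and 11.8 ± 1.46%, and let-7g-5p 8.96 ± 0.924% and 6.74 ± 0.495%. Among the minor arms, miR-98-5p made up 1.56 ± 0.254% and 0.662 ± 0.0639%, and let-7b-5p 1.33 ± 0.232% and 1.97 ± 0.219%.

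Of the 8 shares tested, 4 were higher and 3 lower in macrophages by an exact two-sided sign-flip permutation test over the 10 matched pairs. The 6 arms other than let-7i-5p among these differed in the same direction in 10 of 10 pairs (exact p = 0.00195, unadjusted and the smallest that 10 pairs allow). let-7i-5p was higher in 9 of 10 pairs (exact p = 0.0176), and in the 8 pairs without the 2 macrophage libraries that stood apart the difference was 2.28 points (exact p = 0.0703). let-7d-5p made up 2.56 ± 0.267% and 2.54 ± 0.154% (SD, n = 10 each), higher in 5 of 10 pairs (exact p = 0.859). Because shares sum to 100%, a fall of let-7c-5p raises the others.

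**Figure D2:**
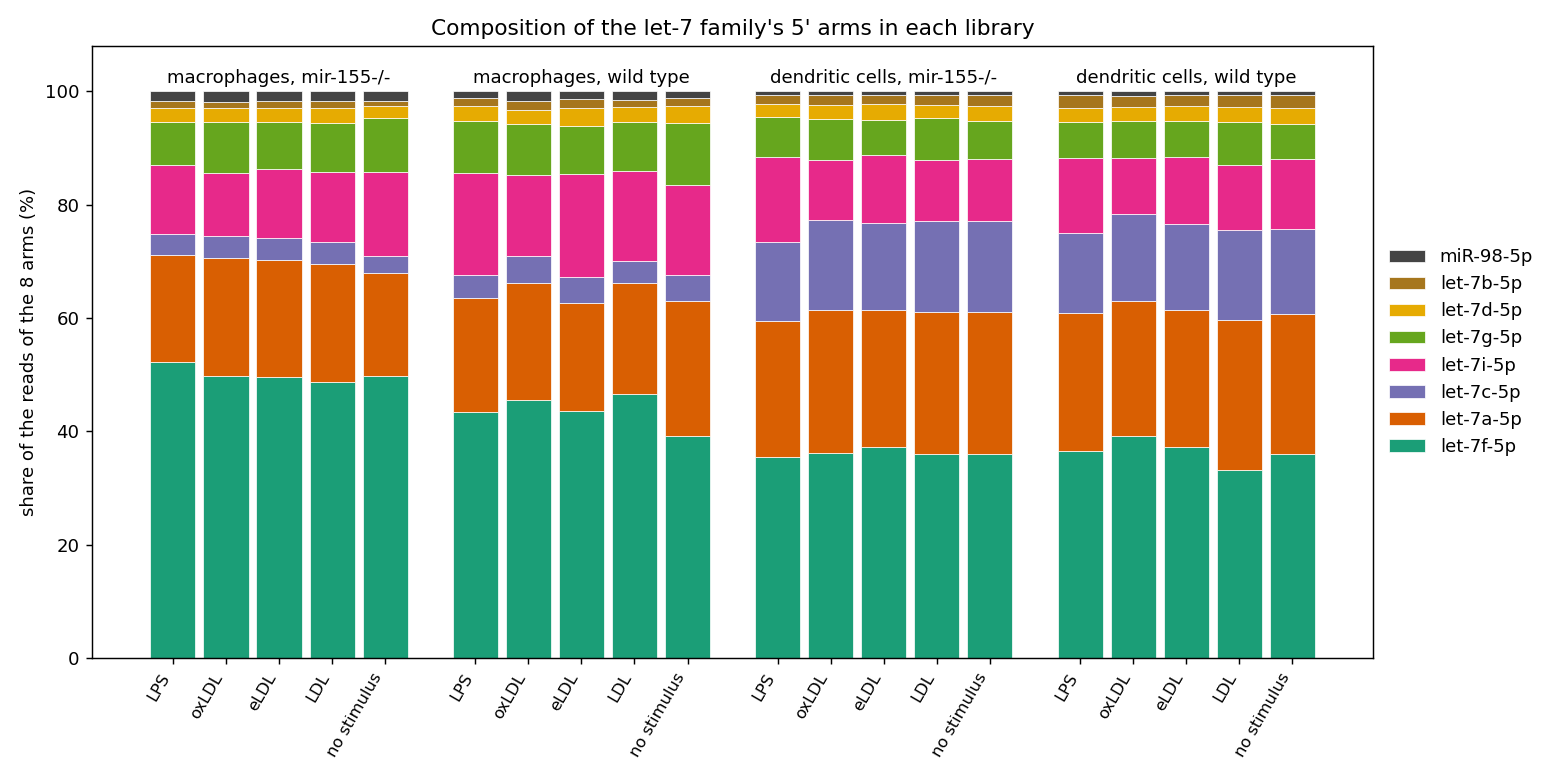
Share of each of the 8 arms with the let-7 seed in their summed reads (vertical axis, %), 1 bar per library, grouped by cell type and genotype. let-7c-5p takes 3.06 to 4.68% in macrophages and 14.0 to 16.1% in dendritic cells, and let-7f-5p takes more in mir-155-/- macrophages (48.7 to 52.2%) than in wild-type macrophages (39.2 to 46.6%).

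LPS, a component of the outer membrane of Gram-negative bacteria that is sensed through TLR4, was compared with no stimulus over 2 pairs of libraries in each cell type. In dendritic cells let-7i-5p and let-7g-5p rose and 8 members were not called, against 11.8% of all miRNAs that rose and 23% that were called. The fitted log2 changes of those 8 ran from 0.04 (let-7d-3p) to 0.58 (let-7i-3p), with 0.48 ± 0.21 for let-7a-5p, 0.52 ± 0.19 for let-7f-5p and 0.50 ± 0.23 for miR-98-5p. In macrophages 0 of 10 members were called by edgeR, 0 had an unadjusted p under 0.05 and 0 were called by DESeq2, while 20.1% of all miRNAs were called, and the log2 changes of the 10 ran from −0.35 (let-7g-5p) to 0.09 (let-7b-5p and miR-98-5p).

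let-7i-5p was at 33101 CPM with LPS against 27720 CPM without in mir-155-/- dendritic cells, and at 30280 against 22534 CPM in wild-type dendritic cells. Both LPS libraries were above both unstimulated ones, and the fitted log2 change was 0.80 ± 0.16 (edgeR, adjusted p = 0.00149). Within the family its share was 14.95% with LPS against 10.8% without in mir-155-/- dendritic cells, and 13.2% against 12.4% in wild-type dendritic cells. let-7g-5p was at 15642 CPM with LPS against 17345 CPM without in mir-155-/- cells but 14387 against 11268 CPM in wild-type cells, with a fitted log2 change of 0.55 ± 0.19 (edgeR, adjusted p = 0.0413).

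The LPS values depend on how libraries are scaled. TMM factors, which scale by the bulk of miRNAs, were 0.853 and 0.856 in the LPS libraries of dendritic cells and 1.15 and 1.22 in the unstimulated ones. With total miRNA reads as the scale the median over all miRNAs was −0.47 in place of −0.01 on the log2 scale, 26 miRNAs were higher and 121 lower in place of 44 and 42, and 0 members were called: let-7i-5p had 0.34 (edgeR, adjusted p = 0.0596) and let-7g-5p 0.08 (adjusted p = 0.752). let-7b-5p, let-7c-5p, let-7d-5p and let-7d-3p, fitted at 0.38, 0.37, 0.37 and 0.04 with TMM, then had −0.09, −0.10, −0.10 and −0.42. The median over the members was 0.49 with TMM.

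Leaving out single libraries moved these calls. let-7i-5p kept its call without any 1 of the 20 libraries, with log2 changes of 0.57 to 1. let-7g-5p lost its call without any of 8 libraries, with edgeR adjusted p of 0.0503 to 0.678 and log2 changes of 0.17 to 0.64. These were the dendritic cell libraries wild type unstimulated, with LPS and with eLDL and mir-155-/- with LPS, and the macrophage libraries wild type with oxLDL, eLDL and LDL and mir-155-/- with LDL.

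In macrophages let-7i-5p was at 16564 CPM with LPS against 18152 CPM without in mir-155-/- cells and at 21058 against 19988 CPM in wild-type cells, a fitted log2 change of −0.08 ± 0.16. let-7g-5p was at 10271 against 11821 CPM in mir-155-/- cells and 10719 against 14076 CPM in wild-type cells, a log2 change of −0.35 ± 0.18. The difference of the LPS responses, macrophages minus dendritic cells, was −0.88 ± 0.22 for let-7i-5p (edgeR, adjusted p = 0.0196) and −0.91 ± 0.26 for let-7g-5p (adjusted p = 0.0371), and 8 members were not called. Of all miRNAs 5.35% had a lower response in macrophages and 11% differed, 21 higher and 20 lower with TMM, against 84 higher and 12 lower with total miRNA reads as the scale. On that scale the differences of the 2 members were −0.36 (edgeR, adjusted p = 0.174) and −0.39 (adjusted p = 0.264), and without the 2 macrophage libraries that stood apart the difference of let-7i-5p was −0.78 (adjusted p = 0.0584). The let-7i-5p difference also lost its call without wild-type dendritic cells unstimulated or with LPS or without mir-155-/- macrophages with LPS (edgeR adjusted p of 0.0561 to 0.172), and that of let-7g-5p without any of 8 libraries (adjusted p of 0.0747 to 0.354).

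The 3 lipoproteins, fitted together against no stimulus over both genotypes, changed no member past the threshold. By edgeR 0 of 10 members were called in macrophages, where 11.5% of all miRNAs were, and 0 of 10 in dendritic cells, where 0.267% were. An unadjusted p under 0.05 was seen for 1 member in each cell type, let-7g-5p in macrophages (log2 −0.34 ± 0.15) and let-7d-3p in dendritic cells (0.53 ± 0.19). The other 9 members ran from −0.23 (let-7i-5p) to 0.19 (miR-98-5p) in macrophages and from −0.32 (let-7i-3p) to 0.20 (let-7g-5p) in dendritic cells. The response differed between cell types for 0 of 10 members, where 4.28% of all miRNAs were called, with an unadjusted p under 0.05 for 1 member, let-7g-5p (−0.54 ± 0.21). DESeq2 also called 0 members in each of the 3 comparisons. In macrophages 18 of all miRNAs were higher and 25 lower with TMM, and 36 and 20 with total miRNA reads. For the difference between cell types the counts were 5 and 11 with TMM, and 24 and 8 with total miRNA reads.

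Loss of miR-155, an miRNA that LPS induces strongly in myeloid cells, went with a higher level of let-7d-3p, the arm opposite to the let-7d guide strand. In macrophages let-7d-3p was at 1064 to 1409 CPM in mir-155-/- libraries (with LPS, oxLDL, eLDL, LDL and no stimulus 1064, 1250, 1409, 1408 and 1125) and at 407 to 762 CPM in wild-type libraries (534, 762, 407, 716 and 605). All 5 mir-155-/- libraries were above all 5 wild-type ones, and the log2 change was 0.89 ± 0.15 (edgeR, adjusted p = 0.000309). No single library ended this call, with log2 changes of 0.67 to 1.09.

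In dendritic cells let-7d-3p was at 1201, 1662, 1922, 1728 and 1722 CPM in mir-155-/- libraries with LPS, oxLDL, eLDL, LDL and no stimulus, and at 675, 1333, 1265, 1708 and 828 CPM in wild-type libraries. The ranges overlapped, and the mir-155-/- library was higher in 5 of 5 pairs matched on stimulus. The log2 change was 0.66 ± 0.15 (edgeR, adjusted p = 0.00949). It was the 1 member called there, against 4.81% of all miRNAs that rose and 8.02% that were called (18 higher and 12 lower with TMM, 11 and 20 with total miRNA reads). The call was lost without any of 6 dendritic cell libraries, those unstimulated, with LPS or with eLDL in either genotype (log2 0.47 to 0.63, edgeR adjusted p of 0.0585 to 0.129). The genotype effect on let-7d-3p did not differ between cell types past the threshold (0.23 ± 0.21, edgeR adjusted p = 0.543).

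The partner arm from the same hairpin, let-7d-5p, had log2 changes of −0.12 ± 0.12 in macrophages and 0.10 ± 0.12 in dendritic cells (edgeR, adjusted p of 0.552 and 0.699). let-7d-3p accordingly took 27.3 ± 3.18% of the reads of both let-7d arms in mir-155-/- macrophages and 15.9 ± 3.6% in wild-type macrophages, higher in 5 of 5 pairs. In dendritic cells it took 22.9 ± 3.67% in mir-155-/- and 17.2 ± 5.8% in wild-type libraries (SD, n = 5 each), also higher in 5 of 5 pairs. An exact sign-flip permutation test over 5 pairs cannot go below 0.0625, the value found in both cell types. For comparison, let-7i-3p took 0.068 ± 0.0103% of the let-7i reads in mir-155-/- macrophages and 0.0602 ± 0.00957% in wild-type ones (SD, n = 5 each), higher in 4 of 5 pairs.

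**Figure D3:**
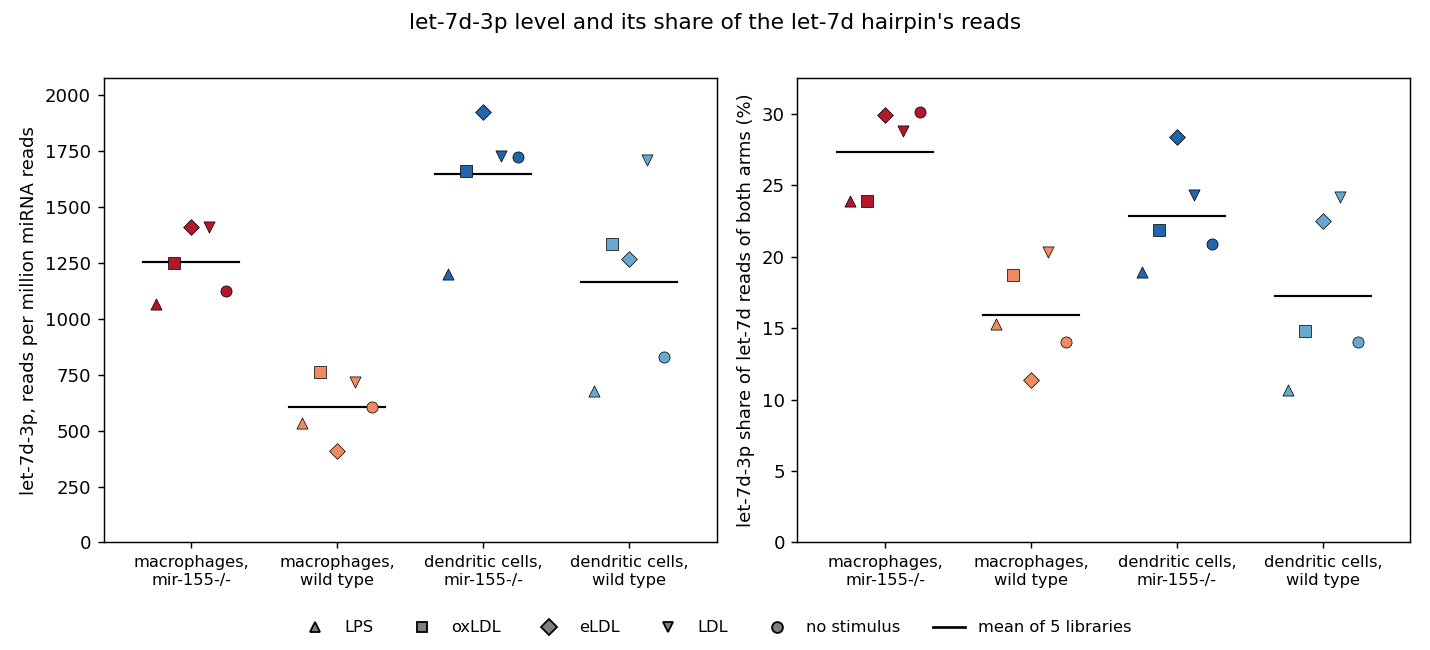
Left, let-7d-3p in CPM; right, its share of the reads of both let-7d arms (%); each symbol is 1 library and lines are means of 5. The 5 mir-155-/- macrophage libraries (1064 to 1409 CPM) lie above the 5 wild-type ones (407 to 762 CPM), while the dendritic cell ranges overlap.

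In macrophages 3 members were called for genotype, let-7d-3p and miR-98-5p higher and let-7i-5p lower, against 9.09% of all miRNAs that rose, 16% that fell and 25.1% that were called. Of all miRNAs 34 were higher and 60 lower with TMM, where the median log2 change was −0.06, and 66 and 42 with total miRNA reads, where it was 0.13. miR-98-5p was at 2012, 2367 and 3049 CPM (lowest, median and highest) in mir-155-/- libraries and 1322, 1473 and 2242 CPM in wild-type libraries, with a log2 change of 0.42 ± 0.14 (edgeR, adjusted p = 0.0439). The call was lost in 15 of 20 fits that left out 1 library (log2 0.33 to 0.53, edgeR adjusted p of 0.0566 to 0.206), without the 2 macrophage libraries that stood apart (0.41, adjusted p = 0.222) and without the filter on low counts (0.45, adjusted p = 0.192). The 5 fits that kept it left out, in dendritic cells, wild type unstimulated or with oxLDL or mir-155-/- unstimulated or with oxLDL, and wild-type macrophages with oxLDL.

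let-7i-5p was at 16564, 18790, 15954, 17356 and 18152 CPM in mir-155-/- macrophages with LPS, oxLDL, eLDL, LDL and no stimulus, and at 21058, 19291, 18676, 17150 and 19988 CPM in wild-type macrophages. The mir-155-/- library was lower in 4 of 5 pairs and the ranges overlapped, with a log2 change of −0.33 ± 0.10 (edgeR, adjusted p = 0.0211). It lost its call without any wild-type macrophage library or without mir-155-/- macrophages with LPS (log2 −0.30 to −0.24, edgeR adjusted p of 0.0596 to 0.149), with upper-quartile scaling (−0.09, adjusted p = 0.603), with total miRNA reads as the scale (−0.15, adjusted p = 0.227), with shared reads left out (−0.23, adjusted p = 0.0693), with DESeq2 size factors (−0.24, adjusted p = 0.0849) and with DESeq2 (−0.24, adjusted p = 0.0738). let-7i-5p was at 21410 to 33101 CPM in mir-155-/- dendritic cells and 20084 to 30875 CPM in wild-type dendritic cells, a log2 change of 0.17 ± 0.10 (edgeR, adjusted p = 0.335). The genotype effect in macrophages minus that in dendritic cells was −0.50 ± 0.14 (edgeR, adjusted p = 0.0217), where 11% of all miRNAs had a lower effect in macrophages and 15.2% differed. With total miRNA reads, which left 42 of all miRNAs higher and 27 lower in place of 16 and 41, this difference was −0.22 (edgeR, adjusted p = 0.228), and that of miR-98-5p was 0.65 (edgeR, adjusted p = 0.0259) in place of 0.37 ± 0.20 (adjusted p = 0.27). The let-7i-5p difference was also lost without any of 10 libraries (−0.48 to −0.32, edgeR adjusted p of 0.06 to 0.12), the 5 of wild-type macrophages and, in dendritic cells, wild type unstimulated, with LPS or with eLDL and mir-155-/- unstimulated or with LPS.

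Shares within the family, which need no scaling, were also set against genotype in macrophages. let-7f-5p made up 50.0 ± 1.3% in mir-155-/- and 43.7 ± 2.81% in wild-type macrophages, without overlap, and let-7i-5p 12.5 ± 1.3% and 16.4 ± 1.62% (SD, n = 5 each), with overlap. let-7c-5p made up 3.67 ± 0.36% and 4.41 ± 0.347%, and let-7b-5p 1.16 ± 0.14% and 1.495 ± 0.177%, both without overlap. Each of these differed in the same direction in 5 of 5 pairs (exact sign-flip permutation p = 0.0625, the smallest 5 pairs allow). The shares of let-7d-5p and let-7g-5p were also lower in 5 of 5 pairs. That of miR-98-5p was higher in 5 of 5, and that of let-7a-5p lower in 2 of 5. Because shares are parts of the same sum, a rise of let-7f-5p lowers the others. Whether the let-7i-5p share was lower apart from this was not tested. The fitted log2 change of let-7f-5p in macrophages was 0.25 ± 0.12 (edgeR, adjusted p = 0.161) with TMM, and 0.44 (adjusted p = 0.00596) with total miRNA reads as the scale. In dendritic cells let-7f-5p made up 36.2 ± 0.621% in mir-155-/- and 36.5 ± 2.14% in wild-type libraries, and let-7b-5p 1.79 ± 0.137% and 2.14 ± 0.105% (SD, n = 5 each), the let-7b-5p share lower in 5 of 5 pairs.

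**Figure D4:**
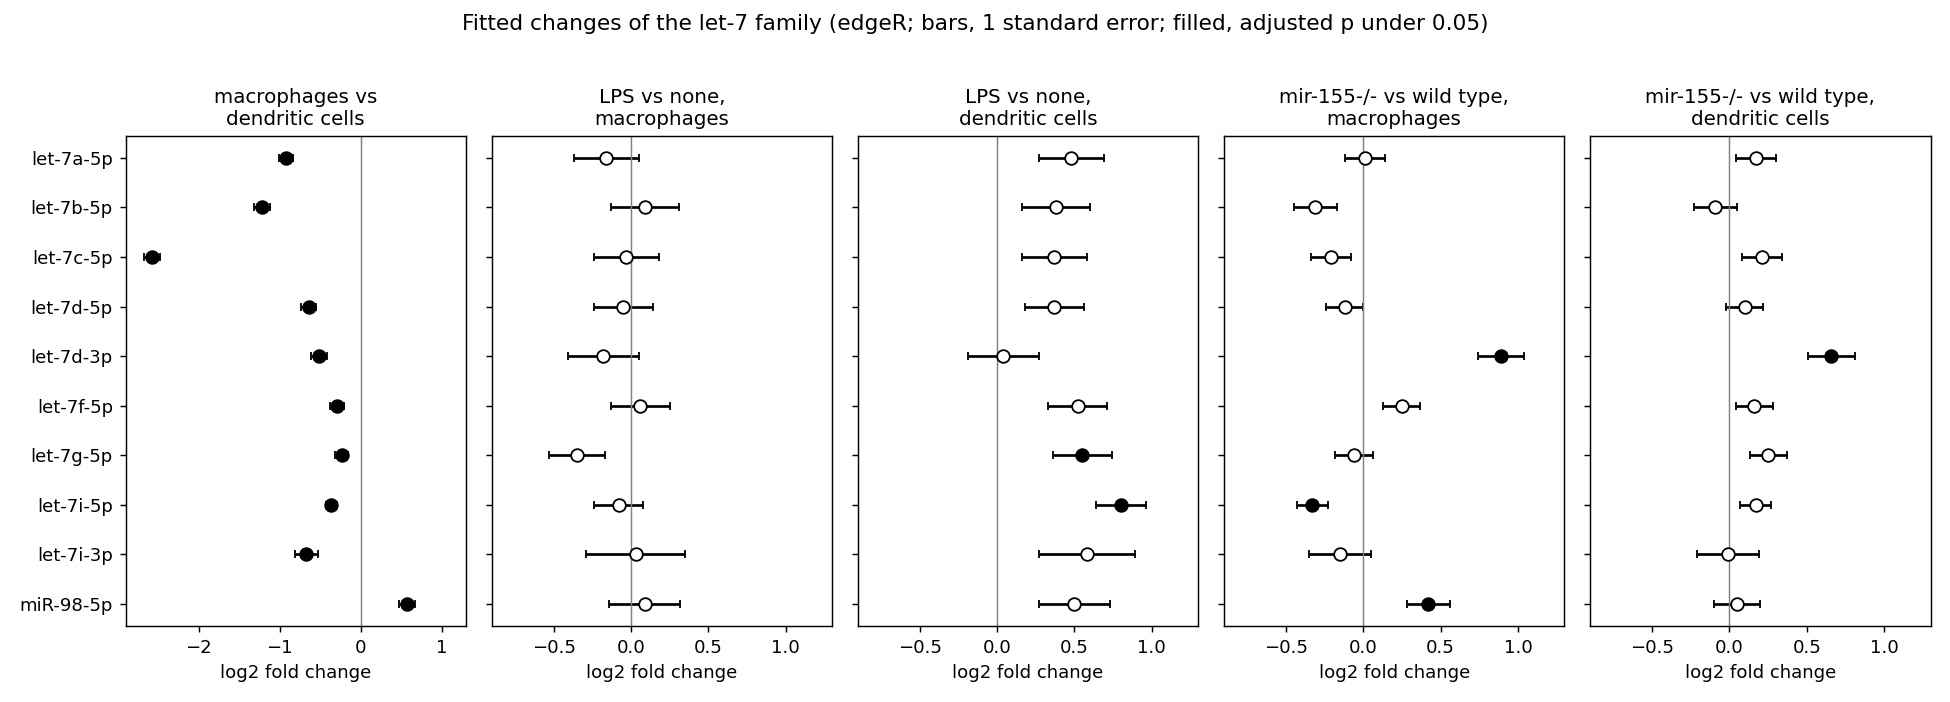
Fitted log2 fold changes of the 10 arms in 5 comparisons (horizontal axes; the range differs in the left panel); points are edgeR estimates, bars 1 standard error, and filled points have an adjusted p under 0.05. let-7c-5p lies at −2.57 in macrophages against dendritic cells, and let-7d-3p is filled in both genotype panels (0.89 and 0.66).

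The ends of the molecules also differed. Tailed reads match no hairpin and are not part of the CPM given above. A tail was counted where 1 to 3 bases that the hairpin does not encode followed at least 18 encoded ones, and single mismatches inside the same mature sequences, at medians of 0.216 to 0.256% per position, give the background of sequencing error. The most frequent single mismatch of a 5′ arm was higher, at 0.55% (miR-98-5p) to 1.01% (let-7c-5p) of its mature reads. Tails were most frequent on let-7b-5p, with 24.3 ± 1.59% of reads in macrophages and 22.3 ± 1.76% in dendritic cells, and on let-7i-5p, with 16.4 ± 1.94% and 14.5 ± 0.903% (SD, n = 10 each). The other 5′ arms had tails on 3.97 to 9.12% of reads in macrophages and 3.96 to 5.57% in dendritic cells.

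Of the 10 members, 7 had more and 1 had fewer tailed reads in macrophages by the exact sign-flip permutation test at an unadjusted p of 0.05. Tails were counted on let-7 and miR-98 hairpins only. No share over all miRNAs can be set beside this count, so it does not set the members apart. let-7a-5p, with 6.81 ± 0.697% in macrophages and 4.45 ± 0.195% in dendritic cells, let-7c-5p, let-7d-5p and let-7g-5p were higher in 10 of 10 pairs (exact p = 0.00195). miR-98-5p had fewer, with 4.29 ± 0.457% and 5.26 ± 0.6%, lower in 9 of 10 pairs (exact p = 0.00586). For let-7f-5p the shares were 3.97 ± 0.172% and 4.01 ± 0.234% (exact p = 0.674), and for let-7i-3p 6.02 ± 3.66% and 4.12 ± 2.16% (exact p = 0.174). let-7i-5p (exact p = 0.0176) and let-7b-5p (exact p = 0.041) were past 0.05 but not without the 2 macrophage libraries that stood apart (exact p = 0.0625 and 0.164); for let-7b-5p that was also so in 14 of the 20 fits without 1 library and its pair (exact p of 0.0547 to 0.082).

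The base added directly after base 22 also differed between the cell types, with A and U in opposite directions on let-7i-5p. The hairpins are printed for 3 members because the next encoded bases, in capitals, decide which additions can be seen.
let-7i, from base 1 of let-7i-5p: ugagguaguaguuugugcuguuGGU
miR-98, from base 1 of miR-98-5p: ugagguaguaaguuguauuguuGUG
let-7a-2, from base 1 of let-7a-5p: ugagguaguagguuguauaguuUAG
Where the next encoded base is U, as in let-7a, an added U cannot be told from a longer cut, so U additions are readable for let-7i-5p and miR-98-5p only. The added forms of let-7i-5p are ugagguaguaguuugugcuguuA and ugagguaguaguuugugcuguuU, with the added base in capitals.

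An added A was present on 11.5 ± 1.32% of let-7i-5p reads ending at base 22 or 23 in macrophages and on 8.53 ± 0.822% in dendritic cells, higher in 10 of 10 pairs. let-7d-5p had 5.72 ± 0.733% and 3.49 ± 0.361%, let-7a-5p 5.72 ± 0.536% and 3.97 ± 0.219%, and let-7b-5p 8.79 ± 0.708% and 7.195 ± 0.34% (SD, n = 10 each). In 6 members, these 4 with let-7c-5p and let-7g-5p, the added A was more frequent in macrophages in 10 of 10 pairs (exact sign-flip permutation p = 0.00195). let-7f-5p, with 3.81 ± 0.162% and 3.97 ± 0.239%, was higher in 3 of 10 pairs (exact p = 0.0996), and miR-98-5p in 6 of 10 (exact p = 0.363). How many of all miRNAs were higher in 10 of 10 pairs was not counted, so the 6 are not set apart by it. The mean was higher in macrophages for 8 of 9 members and for 33 of 58 miRNAs outside the let-7 and miR-98 hairpins.

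All 10 macrophage libraries were above all 10 dendritic cell libraries in 4 of the 9 members with enough reads, let-7a-5p, let-7b-5p, let-7c-5p and let-7d-5p. Of the 67 miRNAs compared, these members included, 8.96% showed that pattern, and of the 58 outside the let-7 and miR-98 hairpins 3.45%. The median difference, macrophages minus dendritic cells, was 0.984 points over the 9 members and 0.0445 points over the other 58. The pattern was not particular to A. An added G showed it in the same 4 members, with 0.695 to 1.02% in macrophages and 0.362 to 0.497% in dendritic cells on let-7a-5p. An added C showed it on let-7a-5p and let-7b-5p but not on let-7c-5p and let-7d-5p. Added G and C were not compared over all miRNAs.

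An added U was less frequent in macrophages. let-7i-5p carried it on 5.02 ± 0.608% of reads in macrophages and 6.22 ± 0.833% in dendritic cells, and miR-98-5p on 1.96 ± 0.288% and 3.53 ± 0.735% (SD, n = 10 each), both lower in 10 of 10 pairs (exact sign-flip permutation p = 0.00195). All macrophage libraries were below all dendritic cell libraries for miR-98-5p, a pattern shown by 17% of the 53 miRNAs compared, these 2 members included. Of the 51 outside the let-7 and miR-98 hairpins, 15.7% showed it. The median difference, macrophages minus dendritic cells, was −1.38 points over the 2 members and −0.60 points over the other 51. Only 4 of those 51 had a higher mean in macrophages, so the lower U addition was shared by most miRNAs.

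**Figure D5:**
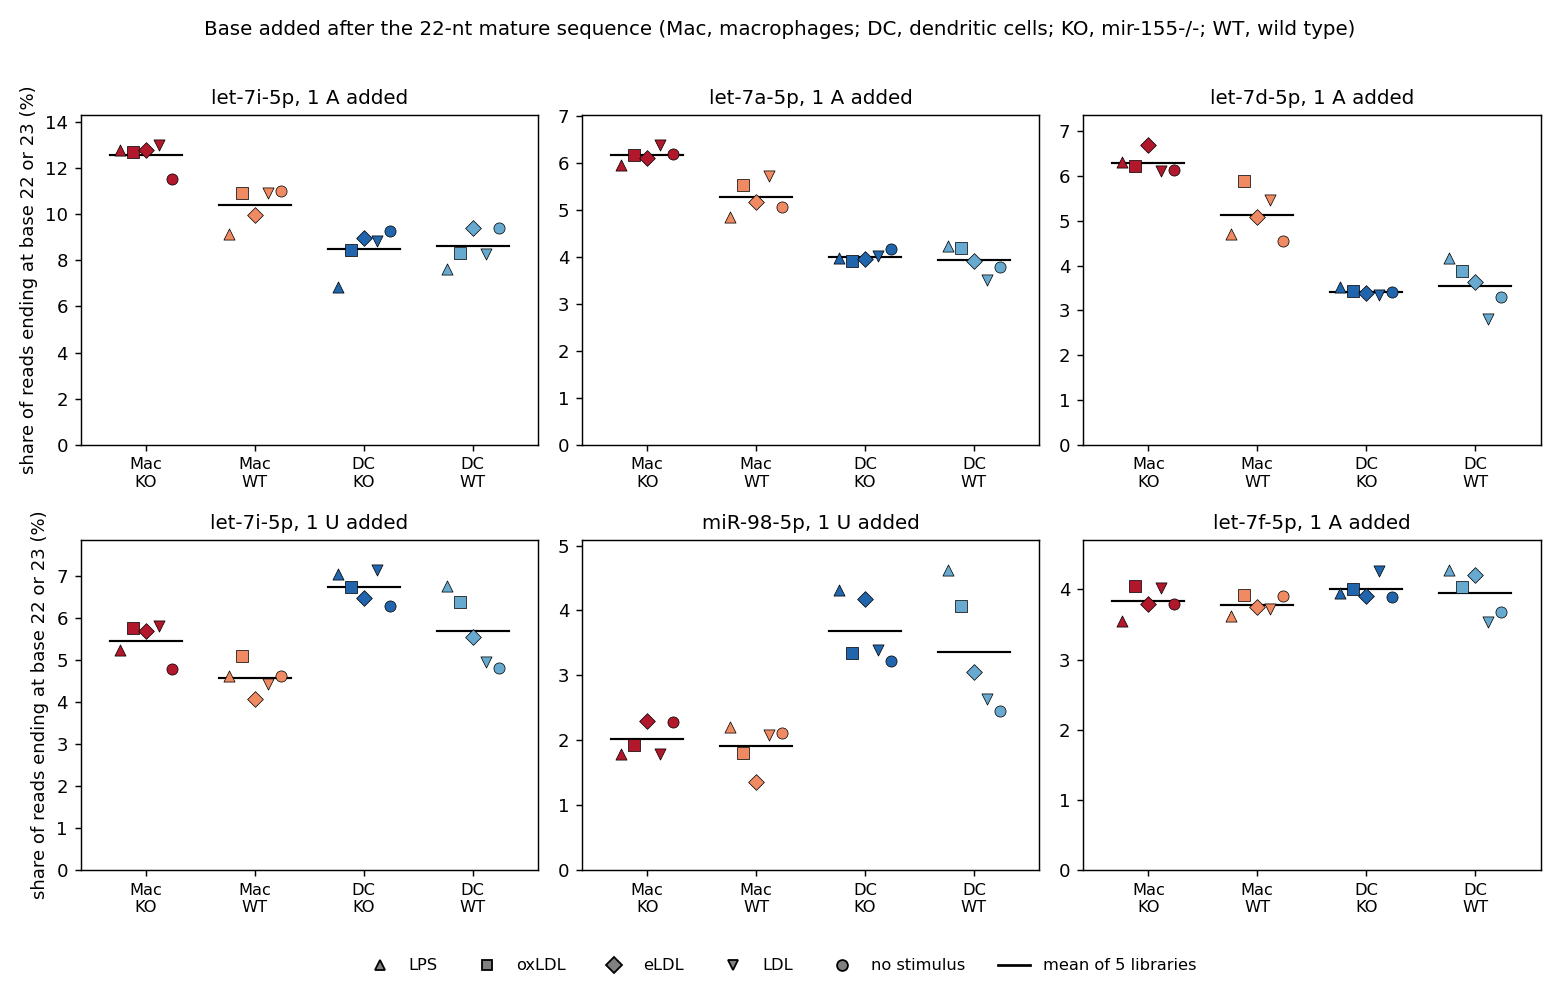
Share of reads with 1 A or 1 U added after base 22, among reads ending at base 22 or 23 (vertical axis, %); each symbol is 1 library, its shape the stimulus, and lines are means of 5 libraries. The A addition on let-7i-5p runs from 11.5 to 13.0% in mir-155-/- macrophages, 9.14 to 11.01% in wild-type macrophages and 6.84 to 9.41% in dendritic cells, and the U addition on miR-98-5p from 1.36 to 2.29% in macrophages and 2.45 to 4.63% in dendritic cells.

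Genotype went with the A additions of some members in macrophages. On let-7i-5p the added A was at 12.8, 12.7, 12.8, 13.0 and 11.5% in mir-155-/- macrophages with LPS, oxLDL, eLDL, LDL and no stimulus, and at 9.14, 10.9, 9.97, 10.9 and 11.01% in wild-type macrophages. All 5 mir-155-/- libraries were above all 5 wild-type ones. The same held for let-7a-5p (5.96 to 6.39% and 4.85 to 5.73%), let-7d-5p (6.12 to 6.70% and 4.55 to 5.89%) and miR-98-5p (2.13 to 2.68% and 1.62 to 2.09%), each with an exact sign-flip permutation p of 0.0625. Of the 67 miRNAs compared, 11.9% showed this, these 4 included. For let-7g-5p the added A was also higher in 5 of 5 pairs (exact p = 0.0625), but the ranges overlapped. It was higher in 2 of 5 pairs for let-7b-5p and in 3 of 5 for let-7c-5p and let-7f-5p (exact p of 0.875, 0.938 and 0.562). In dendritic cells let-7i-5p carried an added A on 8.47 ± 0.955% of reads in mir-155-/- and 8.60 ± 0.774% in wild-type libraries (SD, n = 5 each), higher in 2 of 5 pairs (exact p = 0.625). Its added U was higher in 5 of 5 pairs in both cell types, with 5.46 ± 0.444% in mir-155-/- and 4.57 ± 0.371% in wild-type macrophages and 6.74 ± 0.367% in mir-155-/- and 5.7 ± 0.867% in wild-type dendritic cells (SD, n = 5 each; exact p = 0.0625 in both). The added U of miR-98-5p was higher in 3 of 5 pairs in each cell type (exact sign-flip permutation p = 0.812 in macrophages and 0.375 in dendritic cells). How many of all miRNAs had a higher added U in 5 of 5 pairs was not counted.

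With LPS, let-7i-5p in dendritic cells had fewer A and more U additions. Its added A was at 6.84% with LPS against 9.25% without in mir-155-/- cells and 7.63% against 9.39% in wild-type cells. The added U was at 7.05% against 6.29% in mir-155-/- cells and 6.77% against 4.81% in wild-type cells. miR-98-5p had the added U on 4.31% of reads with LPS against 3.21% without in mir-155-/- cells, and on 4.63% against 2.45% in wild-type cells. Both LPS libraries were above both unstimulated ones in the added U for 64.2% of the 53 miRNAs compared, and below them in the added A for 17.9% of 67, so the U change was shared by most miRNAs. Other 5′ arms did not follow let-7i-5p in the added A. In dendritic cells of both genotypes it was higher with LPS for let-7c-5p, let-7d-5p and let-7f-5p. On let-7d-5p it was at 4.17% against 3.30% in wild-type and 3.53% against 3.41% in mir-155-/- cells. The genotypes went opposite ways for let-7a-5p, let-7b-5p, let-7g-5p and miR-98-5p. In macrophages let-7i-5p had 12.8% with LPS against 11.5% without in mir-155-/- cells, and 9.14% against 11.01% in wild-type cells. Over 2 pairs an exact test cannot go below 0.5, and none was made.

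Within cultures, the miRNAs whose levels followed the family most closely were named by the highest Pearson correlation of log2(CPM + 1) over the 20 libraries, after each culture's mean had been subtracted. For the summed family these were miR-1839-5p (r = 0.86), miR-26b-5p (0.80), the 5′ arm of Mir669c (0.79), miR-671-5p (0.78) and miR-29b-1-5p (0.76). For let-7i-5p alone they were miR-671-5p (0.75), miR-574-5p (0.69), the 5′ arm of Mir669c (0.69), miR-7a-5p (0.68) and miR-1839-5p (0.67). The points share libraries and their scaling, so these values describe the 20 libraries and carry no test.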

How the data were processed

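Each deposited table lists distinct sequence tags of 18 to 45 nt with their read count, a raw count per library made by the authors without normalization, alignment or miRNA names. Per the labels' protocols, Trizol RNA was made into libraries with the TruSeq kit. Per the submitters' processing notes CASAVA 1.8.2 was used, for a step not given in the sources used here, as are the trimming tool and its limits.

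Exact matches of tags of 18 to 26 nt were sought in the 1178 mouse hairpins of GENCODE M21 (GRCm38), and matches were assigned to an arm by a start within 2 nt of the RefSeq mature start or, in arms without one, of the most abundant start. Tags that fitted several arms were divided equally, and the sums rounded to whole numbers. Tailed tags and tags with an unread base are not in these counts. CPM is the count scaled to all hairpin reads. Tests took the 374 arms that reached 5 CPM in 2 or more libraries.

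Counts were scaled by TMM and fitted in 1 model of all 20 libraries (edgeR 4.0.16 in R 4.3.3, robust quasi-likelihood F test, culture plus stimulus within cell type, 8 residual degrees of freedom), with Benjamini-Hochberg adjustment over the 374 arms at 0.05. With 1 library per condition, the spread comes from departures of the 2 genotypes from parallel stimulus responses, and every library is assumed to vary alike. The SE follows from the log2 change and its F statistic.

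Shares of the family, tails and added bases were compared by exact two-sided sign-flip permutation tests over pairs matched on genotype and stimulus (1024 arrangements of 10 pairs, 32 of 5), with unadjusted p-values over 8, 10 and 8 members for cell type. A planned adjustment over the members alone was not made. The members and lists were chosen with earlier results of these data known. Added bases were counted in miRNAs with at least 1000 reads in each library.

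Each comparison accounts for all 10 members, by name or within a count and range. Marker arms that RefSeq does not name were taken from their hairpins (Mir1a, Mir122, Mir124a, Mir143, Mir145a, Mir150 and the 5′ arm of Mir126a). The reads do not identify single molecules, so counting limits, such as the 3 reads that a count of 0 allows at 95% confidence, cover counting error only. The model was tested on simulated counts with known changes, log2 1 in 200 of 374 miRNAs. It recovered 97.5% of them for cell type, 73.5% for LPS in dendritic cells and 94.5% for genotype in macrophages. Of the 174 unchanged miRNAs it called 1, 4 and 4. Smaller changes were not simulated, so a member not called is not shown to be unchanged. Alternatives were other scalings, DESeq2 1.42.0, no filter on low counts, shared reads left out, tags of 20 to 24 nt and each library left out in turn. Counting reads with 1 unread base, and leaving out the 2 macrophage libraries that stood apart, were chosen after seeing the data.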

Additional observations from a re-analysis of the deposited data

Results flagged for a closer look

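The effect of LPS differed between macrophages and dendritic cells for let-7g-5p and let-7i-5p by a test of the difference itself, with log2 differences of −0.91 ± 0.26 and −0.88 ± 0.22 (edgeR, adjusted p = 0.0371 and 0.0196). The dendritic cell effects were 0.55 and 0.80 and those in macrophages −0.35 and −0.08. With total miRNA reads as the scale the differences were −0.39 and −0.36 (edgeR, adjusted p = 0.264 and 0.174).

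The effect of genotype differed between macrophages and dendritic cells for let-7i-5p, with a log2 difference of −0.5 ± 0.14 (edgeR, adjusted p = 0.0217) between −0.33 in macrophages and 0.17 in dendritic cells. With total miRNA reads as the scale it was −0.22 (edgeR, adjusted p = 0.228), and with upper-quartile scaling −0.25 (adjusted p = 0.345). The share of let-7i-5p in the family, which needs no scaling, was 12.5% in mir-155-/- and 16.4% in wild-type macrophages. In dendritic cells it was 11.83% in mir-155-/- and 11.78% in wild-type libraries. A share also depends on the other members, and let-7f-5p made up 49.95% in mir-155-/- and 43.68% in wild-type macrophages. Whether the let-7i-5p share was lower apart from the higher let-7f-5p share was not tested. Single libraries were not tested for standing out, since each condition has 1.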

How the results depend on the processing

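A fit with replicate number as a block could not be made, since the labels give no replicate numbers and each condition has 1 library; the pairs of the exact tests are matched on genotype and stimulus. The cell type calls of all 10 members, the 0 calls for LPS in macrophages and for lipoproteins in each cell type, and the family sum (log2 −0.806 to −0.72 without any 1 pair) kept their count or direction under every alternative run, except let-7g-5p without the 2 macrophage libraries that stood apart. For LPS in dendritic cells, 2 members were called with TMM, 1 with DESeq2 size factors, 0 with total miRNA reads, 1 with upper-quartile scaling, 1 without the filter on low counts and 1 to 5 without single libraries. For the LPS difference between cell types the count was 2 with TMM, 0 with total miRNA reads, 1 with upper-quartile scaling, 1 without the filter, 1 without the 2 macrophage libraries and 0 to 3 without single libraries. For the genotype difference it was 1, against 0 with DESeq2 size factors and 0 to 2 without single libraries. The member called also changed. With upper-quartile scaling let-7i-5p was not called (−0.25, edgeR adjusted p = 0.345) and miR-98-5p was (0.63, adjusted p = 0.0351). Without single libraries the count was 1 to 4 in place of 3 for genotype in macrophages, 0 to 1 in place of 1 for genotype in dendritic cells and 0 to 1 in place of 0 for the lipoprotein difference.

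Signs turned where values were small. For LPS in dendritic cells with total miRNA reads let-7b-5p had −0.09, let-7c-5p −0.10, let-7d-5p −0.10 and let-7d-3p −0.42, and with upper-quartile scaling let-7d-3p had −0.09. Without single libraries the LPS values ran from −0.03 to 0.77 for let-7b-5p, −0.02 to 0.73 for let-7c-5p and −0.34 to 0.43 for let-7d-3p in dendritic cells, and from −0.27 to 0.08 for let-7i-5p in macrophages, which was 0.03 without the 2 macrophage libraries. The let-7d-5p share difference ran from −0.0397 to 0.0613 points and the let-7f-5p tail difference from −0.0816 to 0.0161 points. let-7f-5p was called for LPS in dendritic cells with DESeq2 (0.55, adjusted p = 0.0465), with shared reads left out and with tags of 20 to 24 nt, and for genotype in macrophages with total miRNA reads, upper-quartile scaling, DESeq2 and shared reads left out (0.34 to 0.50). Beyond the fewer libraries in some fits, the cause of these changes was not tested. Depth limited let-7i-3p, with 2714 reads over all libraries, tailed ones included, more than any other member.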

Other observations

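let-7b-5p had a tail on more of its reads than any other member, and many of its tails were longer than 1 base. Of its tailed reads, 54.2% carried 1 added base and 35.2% carried 2 in macrophages, and 49.7% carried 1 and 40.4% carried 2 in dendritic cells. For let-7a-5p 92.1% of tailed reads in macrophages and 94.6% in dendritic cells carried a single base. The most abundant tailed tag of let-7b-5p with U alone ended in 4 U, 2 more than the mature sequence, of which the hairpin encodes the first.

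let-7e-5p, which shares the let-7 seed but lies in another cluster, is not counted in the family here. It was at 131 to 1392 CPM in macrophages and 3891 to 9704 CPM in dendritic cells, and adding it to the family left the same number of shares, 7 of 8, past an unadjusted exact p of 0.05. At the rates of the other substitutions at the same base, misread let-7a-5p reads come to 0.199 to 5.32% of let-7e-5p reads, misread let-7c-5p reads come to at most 0.785% of let-7b-5p reads, and misread let-7f-5p reads to at most 0.229% of let-7a-5p reads.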
